A study of Mus musculus with 2 samples.

Results

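Striated muscle genes were examined on arrays of the vaginal wall, an organ whose own muscle is smooth. The 46 genes were chosen by name as components of skeletal muscle, with earlier results of these data known. They were matched to probe sets annotated to exactly 1 of them. This gave 73 probe sets of the 45101 on the array and 46 of 18194 genes with a name of their own. All 46 had at least 1 probe set. RNA from whole vagina of female *Fbln5*-/- mice and of wild type (WT) mice, both of the strain background C57/Bl6 and 6 months of age, was hybridized to the Affymetrix mouse 430 2.0 array, with 1 array per genotype. Animals of both genotypes had been ovariectomized and given estradiol at 50 µg/kg/d for 3 d. The sample labels put ovariectomy at 11 d, the series description at 2 weeks, and the methods place the hormone 2 weeks after surgery. The methods give 2 animals in each group without saying whether their RNA was pooled. With 1 array per genotype no difference below has a replicate check, and no p-value or error between animals is given.

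Skeletal muscle contracts when calcium released through the ryanodine receptor binds troponin on the actin filament and lets myosin heads pull. Fast and slow fibres carry different isoforms of the same parts, so that myosin, troponin, calsequestrin and myosin binding protein C each have fast and slow genes, while skeletal α-actin, titin and nebulin are shared. Fibres of this kind form the pelvic floor and the urethral sphincter, which adjoin the vagina.

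Signals are MAS5 intensities brought to a common median on both arrays. The methods of the study left out readings under 100 in both genotypes, so 100 was taken as the limit, and 55.9% of *Fbln5*-/- and 54.8% of WT probe sets were under it as deposited. *Fbln5*, the targeted gene, had signals of 30.4 in *Fbln5*-/- and 410 in WT tissue, at least 4.10-fold lower, at 1 of its probe sets and was under 100 on both arrays at the other. Epithelial *Krt5*, *Krt14*, *Krt4* and *Krt13* had signals above 100 on both arrays. All 12 genes of a list of vaginal epithelium and stroma were within 2-fold at their brightest probe sets. Fainter probe sets past the limit were outside 2-fold for *Trp63* and *Col3a1*. *Trp63* had 12.9 in *Fbln5*-/- and 286 in WT tissue at 1 and 105 and 290 at another, and *Col3a1* had 5233 and 2220. The balance of 5′ and 3′ signal in the control probe sets was unequal between the arrays, and its source was not tested. The *Gapdh* control probe set at the 5′ end of the transcript had signals of 795 in *Fbln5*-/- and 17262 in WT tissue, whereas at the 3′ end the signals were 13829 and 13329. The *Actb* control had 2513 in *Fbln5*-/- and 9200 in WT tissue at its 5′ end (3.66-fold lower) and 11845 and 13392 at its 3′ end. Where the probe sets of the muscle genes lie along their transcripts is not known, and the part of this 5′ difference in the results was not tested.

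Fast, shared and slow sarcomere genes all had members above the limit on both arrays. Of the 46 genes, 27 had a signal of at least 100 on both arrays, 8 only on the *Fbln5*-/- array, 1 only on the WT array and 10 on neither. The 27 are 58.7% of the members, close to the 60.3% of all 18193 genes with a probe set that is not a control. Of all 11934 genes measured, 604 passed only on the *Fbln5*-/- array and 354 only on the WT array. Among fast genes 11 of 15 passed on both arrays, against 4 of 10 slow genes and 5 of 8 shared sarcomere genes. Most were modestly higher in *Fbln5*-/- tissue. Of the 27 genes measured on both arrays, 24 had a log2 ratio of *Fbln5*-/- over WT above 0, where 63.7% of all 10976 genes measured on both arrays did. Their median log2 ratio was 0.48 (quartiles 0.20 and 0.57), against 0.15 (quartiles −0.15 and 0.46) over all such genes. In bulk tissue, more fibres and more RNA per fibre cannot be told apart.

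**Figure D1:**
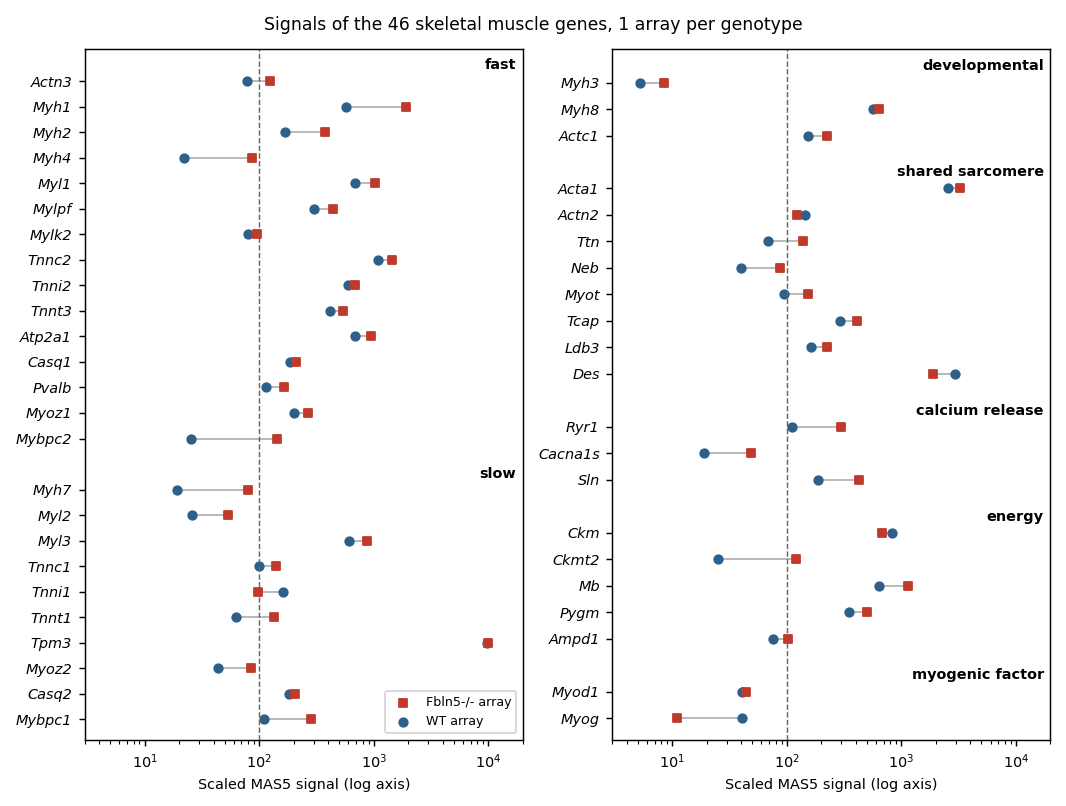
Scaled signal (log axis) of the 46 skeletal muscle genes on the *Fbln5*-/- array (squares) and the WT array (circles), 1 array each, by class. Each gene is shown at its probe set with the highest mean signal and the dashed line marks 100. Squares lie to the right of circles for most genes, with *Des*, *Ckm*, *Actn2*, *Tnni1* and *Myog* the other way.

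A 2-fold difference was less common than a small one. Of the 27 genes at 100 or more on both arrays, 5 were at least 2-fold higher in *Fbln5*-/- tissue (*Myh1*, *Myh2*, *Mybpc1*, *Ryr1* and *Sln*), where 5.26% of all such genes were, and none was 2-fold lower, where 3.59% were. With the genes that passed on 1 array only, 9 of 36 were 2-fold higher and none lower, against 7.21% and 4.77% of all 11934 genes measured. The 4 added genes, *Mybpc2*, *Tnnt1*, *Ttn* and *Ckmt2*, were under 100 in WT tissue and passed only through the *Fbln5*-/- array, so a higher value was the only direction open to them. When any signal below 100 was raised to 100, 5 of 36 were 2-fold higher and none lower, against 5.8% and 3.95% of all genes.

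The myosin heavy chain genes encode the motors of adult fast fibres, and *Myh1* at its brightest probe set had the widest gap among the 27 genes. *Myh1*, which encodes the IIx chain, had signals of 1923 in *Fbln5*-/- and 570 in WT tissue at its brightest probe set, a 3.37-fold difference. A second *Myh1* probe set, marked by its name as one that can match related sequences, gave 1770 and 710 (2.49-fold), and another had 4.52 and 2.63. The rank of *Myh1* depends on this choice, since *Ryr1* (2.69-fold) and *Mybpc1* (2.53-fold) exceeded it at the second probe set. They also exceeded it under quantile normalization. *Myh2*, the IIa chain, had signals of 373 in *Fbln5*-/- and 169.6 in WT tissue (2.20-fold, 1 probe set). The IIb gene *Myh4*, the motor of the fastest fibres, stayed under 100 at both of its probe sets, with signals of 86.9 in *Fbln5*-/- and 21.9 in WT tissue at the brighter of these, and no fold is given. These genes are near-identical over much of their coding sequence, so signal assigned to 1 of them is uncertain, and sharing of targets between their probes was not tested.

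The fast and developmental skeletal myosin genes lie side by side on chromosome 11 in the order *Myh3*, *Myh2*, *Myh1*, *Myh4* and *Myh8* with no other protein-coding gene of the GRCm38.p6 table between them. The 250 bases before the annotated start of *Myh2*, *Myh1* and *Myh4* are shown because these neighbours include the 2 heavy chain genes past 2-fold. Sequences are those of RefSeq (GRCm38.p6), 5′ to 3′ on the strand of the gene, and capitals mark the longest run that all 3 hold, 20 bases long.
*Myh2* (chr11:67170777-67171026, + strand): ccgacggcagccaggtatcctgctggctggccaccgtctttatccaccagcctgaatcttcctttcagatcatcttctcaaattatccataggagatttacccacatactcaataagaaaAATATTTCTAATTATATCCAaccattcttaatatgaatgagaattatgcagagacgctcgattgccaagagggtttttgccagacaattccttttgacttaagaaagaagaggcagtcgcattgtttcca
*Myh1* (chr11:67199852-67200101, + strand): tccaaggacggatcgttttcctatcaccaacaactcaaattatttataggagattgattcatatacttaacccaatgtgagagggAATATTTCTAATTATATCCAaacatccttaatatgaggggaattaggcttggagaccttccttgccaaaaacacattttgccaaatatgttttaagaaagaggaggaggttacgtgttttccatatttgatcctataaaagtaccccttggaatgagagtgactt
*Myh4* (chr11:67237562-67237811, + strand): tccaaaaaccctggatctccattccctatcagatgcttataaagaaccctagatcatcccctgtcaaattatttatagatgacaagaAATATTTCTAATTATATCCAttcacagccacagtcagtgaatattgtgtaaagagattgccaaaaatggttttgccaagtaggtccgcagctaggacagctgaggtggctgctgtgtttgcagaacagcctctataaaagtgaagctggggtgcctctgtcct
The shared run begins 165 bases before the start of *Myh1*, 163 before that of *Myh4* and 130 before that of *Myh2*. It was found in these 3 promoters and in no other of the 32851 in the table, on either strand. All 3 hold it, while *Myh4* was under 100 on both arrays.

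Promoters of 35 of the 46 genes were in the table, 43 windows in all, and were searched on both strands for the letters bound by factors known to drive muscle genes. The E-box, CANNTG, bound by myogenic factors such as MyoD, was in 83.7% of the 43 windows and in 66.2% of all windows. Its form CAGCTG, which is counted among the E-boxes too, was in 19 windows (44.2%), against 13.0% of all. The MEF2 consensus was in 7 windows (16.3%, against 2.92% of all) and the CArG box of serum response factor in 6 (14.0%, against 1.47%). The TATA box, TATAAA, was in 8 (18.6%, against 12.4%). The windows of *Acta1* and *Ckm*, a shared filament gene and a muscle enzyme gene with opposite ratios on these arrays, are shown with CAGCTG in capitals.
*Acta1* (chr8:123894776-123895025, − strand): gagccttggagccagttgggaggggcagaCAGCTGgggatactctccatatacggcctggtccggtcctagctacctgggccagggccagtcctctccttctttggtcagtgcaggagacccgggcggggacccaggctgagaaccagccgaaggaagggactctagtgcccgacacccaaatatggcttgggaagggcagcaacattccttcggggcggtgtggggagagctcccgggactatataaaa
*Ckm* (chr7:19410844-19411093, + strand): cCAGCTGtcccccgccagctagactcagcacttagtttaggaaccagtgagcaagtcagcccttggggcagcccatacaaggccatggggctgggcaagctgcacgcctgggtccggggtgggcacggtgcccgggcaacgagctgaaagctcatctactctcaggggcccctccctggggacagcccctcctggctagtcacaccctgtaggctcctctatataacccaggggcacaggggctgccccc
A match describes the letters only and no binding was measured.

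The fast troponins and light chains were higher by less than 2-fold in *Fbln5*-/- tissue. *Tnnc2*, the calcium-binding troponin of fast fibres, had signals of 1451 in *Fbln5*-/- and 1081 in WT tissue (log2 ratio 0.42). Its partners *Tnni2*, the inhibitory subunit, and *Tnnt3*, which anchors the complex on tropomyosin, had log2 ratios of 0.22 and 0.39 from signals of 691 and 543 in *Fbln5*-/- and 593 and 413 in WT tissue. All 3 fast troponin subunits thus differed in the same direction by a small amount. *Myl1*, an alkali light chain of fast myosin, had signals of 1035 in *Fbln5*-/- and 689 in WT tissue (log2 ratio 0.59), and *Mylpf*, the phosphorylatable light chain, 437 and 301 (0.54). The heavy chain *Myh1* differed by more than either light chain.

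Genes that handle calcium or build the Z-disc of fast fibres differed by similar amounts. *Atp2a1*, the calcium pump that refills the sarcoplasmic reticulum, had signals of 939.9 in *Fbln5*-/- and 692 in WT tissue (log2 ratio 0.44). *Casq1*, the calcium store protein of the reticulum, had 208 and 185 (0.16). *Pvalb*, a calcium buffer that speeds relaxation, had 163.5 in *Fbln5*-/- and 114 in WT tissue (0.52). *Myoz1*, a Z-disc protein that binds calcineurin, had 268 and 200.03 (0.42). None of these reached a 2-fold difference. *Actn3*, the α-actinin of fast fibres, was at 124 in *Fbln5*-/- and 78.6 in WT tissue, at least 1.24-fold higher, and *Mybpc2*, the fast myosin binding protein C, at 144 and 25.4, at least 1.44-fold higher. *Mylk2*, the kinase of the skeletal light chain, was under 100 on both arrays (96.4 in *Fbln5*-/- and 80.5 in WT tissue). Over the 11 fast genes at 100 or more on both arrays, all log2 ratios were above 0, from 0.16 to 1.75, with a median of 0.44.

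**Figure D2:**
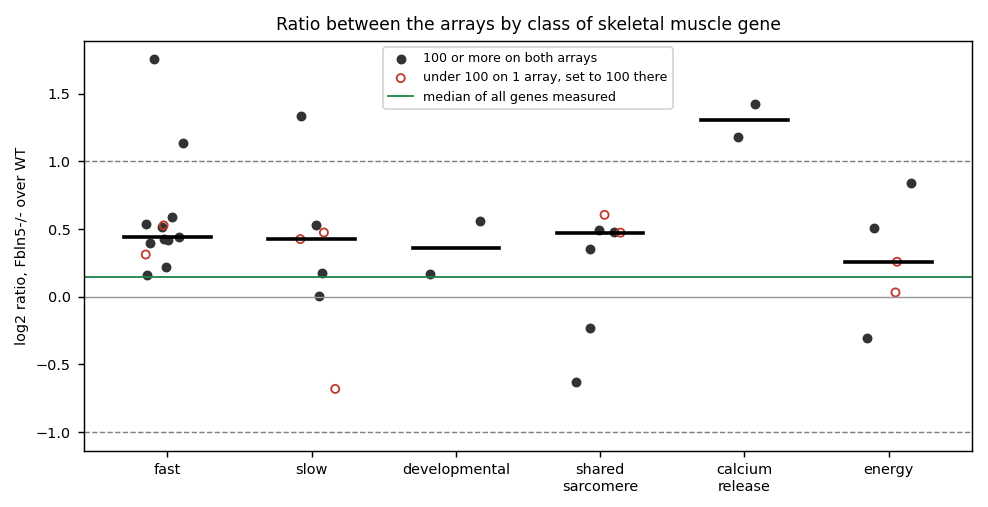
Ratio of *Fbln5*-/- to WT signal on the log2 scale for the skeletal muscle genes that passed the limit of 100, by class, 1 array per genotype, any signal below 100 raised to 100. Filled symbols passed the limit on both arrays and open symbols are bounds. Thick bars are class medians with the bounds included (0.44 fast, 0.43 slow, 0.47 shared sarcomere). Genes that passed only on the *Fbln5*-/- array could only be higher. Over filled symbols alone the medians are 0.44 fast, 0.35 slow and 0.35 shared sarcomere. Dashed lines mark 2-fold and the green line marks the median of all genes measured (0.15). Both myogenic factors were under 100 and are not plotted.

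Of the 10 slow fibre genes, 7 passed the limit on at least 1 array and 4 on both. *Mybpc1*, the slow myosin binding protein C, had signals of 281 in *Fbln5*-/- and 111 in WT tissue at its brightest probe set (2.53-fold), and its 2 other probe sets were under 100 on both arrays. *Casq2*, the calsequestrin of heart and slow fibres, had 206 and 182 (log2 ratio 0.18). *Myl3*, a light chain of slow and ventricular myosin, was measured by 3 probe sets, with log2 ratios of 0.53, −0.10 and 0.59, so the sign depends on the probe set. The slow troponins pointed in both directions. *Tnnc1*, the calcium-binding subunit of slow and cardiac muscle, had signals of 139 in *Fbln5*-/- and 99.0 in WT tissue, at least 1.39-fold higher, and *Tnnt1*, the slow tropomyosin-binding subunit, 134 and 62.6, at least 1.34-fold higher. *Tnni1*, the slow inhibitory subunit, ran the other way, with 97.9 in *Fbln5*-/- and 160.4 in WT tissue, at least 1.60-fold lower.

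The slow motor itself stayed below the limit. *Myh7*, the slow and cardiac heavy chain, had signals of 79.8 in *Fbln5*-/- and 19.2 in WT tissue, *Myl2*, its regulatory light chain, 53.9 and 25.8, and *Myoz2*, the slow Z-disc calsarcin, 85.04 and 44.1. *Tpm3* encodes slow tropomyosin and also tropomyosins of cells other than muscle. Its probe sets disagreed, with signals of 9846 in *Fbln5*-/- and 9795 in WT tissue at the brightest and log2 ratios of −1.14, −0.64 and −1.02 at the next 3. Over the 4 slow genes at 100 or more on both arrays, log2 ratios ran from 0.01 (*Tpm3*) to 1.34 (*Mybpc1*), with a median of 0.35. Whether slow and fast genes differ from each other was not tested, since their values come from the same single pair of arrays.

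**Figure D3:**
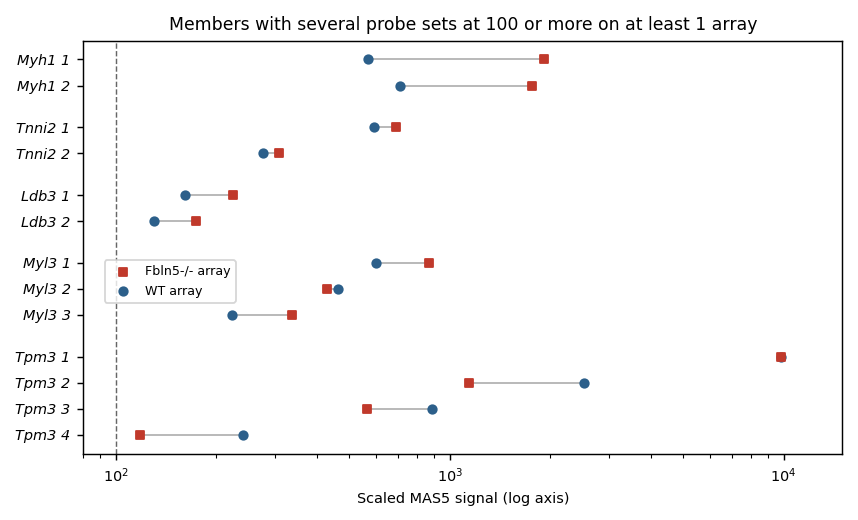
Scaled signal (log axis) of every probe set at 100 or more on at least 1 array for the 5 genes with several such probe sets. Squares are the *Fbln5*-/- array and circles the WT array, 1 array each. Both probe sets of *Myh1*, *Tnni2* and *Ldb3* are higher in *Fbln5*-/- tissue, *Myl3* is split, and 3 of 4 *Tpm3* probe sets are lower.

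Shared sarcomere genes showed small differences in both directions. *Acta1*, the skeletal α-actin of the thin filament, had signals of 3257 in *Fbln5*-/- and 2553 in WT tissue (log2 ratio 0.35). *Tcap*, which caps titin at the Z-disc, had 409 and 290.4 (0.49), and *Ldb3*, a Z-disc adaptor, 225 and 162 (0.48). *Actn2*, the sarcomeric α-actinin of all fibres, was at 122 in *Fbln5*-/- and 143 in WT tissue (−0.23). *Des*, the intermediate filament protein of skeletal and smooth muscle alike, was at 1901 in *Fbln5*-/- and 2941 in WT tissue (−0.63), while its second probe set was under 100 on both arrays. Actin, titin cap and *Ldb3* were thus higher, and the α-actinin and desmin were lower.

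The giant filament proteins were near the limit. *Ttn*, titin, the spring of the sarcomere, passed at 1 of 6 probe sets, with 139 in *Fbln5*-/- and 68.8 in WT tissue, at least 1.39-fold higher, and *Neb*, nebulin, the ruler of the thin filament, had 87.7 and 39.8. *Myot*, myotilin of the Z-disc, had 152 in *Fbln5*-/- and 94.2 in WT tissue, at least 1.52-fold higher. The 5 other *Ttn* probe sets and that of *Neb* were under 100 on both arrays.

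Of the 3 genes of calcium release and its control, 2 passed the limit and both were higher. *Ryr1*, the ryanodine receptor through which skeletal muscle releases calcium, had signals of 299.8 in *Fbln5*-/- and 111 in WT tissue (2.69-fold), and its other probe set was under 100 on both arrays. *Sln*, sarcolipin, a small peptide that lowers the efficiency of the calcium pump, had 426 and 188 (2.27-fold), with another probe set at 3.60 and 4.77. *Cacna1s*, the voltage sensor that opens *Ryr1*, was below the limit at 48.5 in *Fbln5*-/- and 19.1 in WT tissue.

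Energy genes were split. *Mb*, myoglobin, which stores oxygen in oxidative fibres, had signals of 1133 in *Fbln5*-/- and 635 in WT tissue (log2 ratio 0.84), and *Pygm*, muscle glycogen phosphorylase, 497.5 and 349.5 (0.51). *Ckm*, the cytosolic creatine kinase of muscle, was lower, at 671 in *Fbln5*-/- and 829 in WT tissue (−0.31). *Ckmt2*, the creatine kinase of sarcomeric mitochondria, was at 119.6 and 25.3, at least 1.20-fold higher, and *Ampd1*, AMP deaminase of muscle, at 102 and 76.1, at least 1.02-fold higher.

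Of the developmental genes, *Myh8* and *Actc1* passed the limit on both arrays, while both myogenic factors stayed under it. *Myh8*, the perinatal heavy chain, had signals of 636 in *Fbln5*-/- and 565 in WT tissue (log2 ratio 0.17), and *Actc1*, the actin of heart and of fetal skeletal muscle, 223 and 152 (0.56). The embryonic chain *Myh3* was at 8.43 in *Fbln5*-/- and 5.25 in WT tissue. *Myod1* and *Myog*, the transcription factors that commit and differentiate myoblasts, were under 100 on both arrays, with 43.9 and 11.0 in *Fbln5*-/- and 40.7 and 40.3 in WT tissue. These arrays thus held signal of adult and developmental sarcomere genes without a signal of 100 for either factor. Sharing of targets between the *Myh8* probe set and those of other heavy chains was not tested.

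Other genes of striated muscle had ratios in both directions. Of 57 in a further list, 53 were annotated and 28 passed on at least 1 array. Of the 19 at 100 or more on both arrays, 13 had a log2 ratio above 0 and the median was 0.17 (quartiles −0.47 and 0.60), against 0.15 (quartiles −0.15 and 0.46) for all such genes. Over the 28, 5 had at least a 2-fold higher and 2 a 2-fold lower signal, where 7.21% and 4.77% of all genes did. Once signals below 100 were raised to it, 3 were higher and 2 lower, where 5.8% and 3.95% of all genes were. *Fhl1*, a LIM protein of muscle that other cells also make, had signals of 5558 in *Fbln5*-/- and 2199 in WT tissue (2.53-fold). *Fbxo32*, the ubiquitin ligase atrogin of muscle wasting, had 443 and 190.4 (2.32-fold) at its brightest probe set and log2 ratios of 0.69 and 0.38 at the 2 others.

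Within that list, *Cox8b* and *Cox7a1*, cytochrome oxidase subunits of heart, skeletal muscle and brown fat, were at 381 and 173 in *Fbln5*-/- and 79.4 and 80.6 in WT tissue, at least 3.81-fold and 1.73-fold higher. *Smpx*, a small stretch-responsive protein, had 193 in *Fbln5*-/- and 103 in WT tissue (log2 ratio 0.90), and *Lmod2*, a thin filament nucleator, was just past the limit at 101 and 41.8. Among the lower genes, *Jph2*, which tethers the reticulum to the surface membrane in heart and other muscle, had 289.9 in *Fbln5*-/- and 761 in WT tissue (2.63-fold lower). *Art1*, a surface ADP-ribosyltransferase of muscle, was at 94.7 and 209 (at least 2.09-fold lower), and *Myom1*, an M-band protein, at 202 and 334 (log2 ratio −0.72). *Pax7*, of muscle satellite cells, and *Myf5* were under 100 on both arrays.

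Markers of other cells were read beside these values. Fat differed most. *Adipoq*, the adipocyte hormone adiponectin, had signals of 1131 in *Fbln5*-/- and 104 in WT tissue (10.9-fold), and *Ucp1*, the uncoupling protein of brown fat, 696 and 9.63 (at least 6.96-fold). *Lep* was under 100 on both arrays, and *Plin1* was not analysed here. Of 12 adipocyte genes 10 were annotated, 7 passed and 6 of these were at least 2-fold higher, where 7.21% of all genes were. Of the 7, 5 passed only through the *Fbln5*-/- array, so a higher value was the only direction open to them. The 2 at 100 or more on both arrays were both at least 2-fold higher. With signals below 100 raised to it, 5 of the 7 were, against 5.8% of all genes. The summed signal over the 10 was 9599 in *Fbln5*-/- and 2382 in WT tissue. The summed signal of the 15 fast genes was 8482 in *Fbln5*-/- and 5216 in WT tissue, a ratio of 1.63, to which *Myh1* added the most. The slow genes summed to 11793 in *Fbln5*-/- and 11102 in WT tissue and the shared sarcomere genes to 6293 and 6292, and the ratio over all genes measured was 1.10. *Tpm3*, which cells other than muscle also make, supplied 9846 in *Fbln5*-/- and 9795 in WT tissue, most of the slow sums. *Des*, which smooth muscle also makes, supplied 1901 and 2941 of the shared sums and ran against the higher *Acta1*. These sums therefore do not show that the difference was limited to fast genes. Over all 46 genes the sums were 30789 in *Fbln5*-/- and 25647 in WT tissue (19042 and 12910 without *Tpm3* and *Des*). The part of the fat difference in the muscle values was not tested.

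Smooth and heart muscle genes were mostly within 2-fold. Of 12 smooth muscle genes, 11 were at 100 or more on both arrays at their brightest probe sets. Of these, 1 (*Synpo2*) was at least 2-fold higher, and their median log2 ratio was 0.08. *Mylk* had a log2 ratio of 0.38 at its brightest probe set and −1.37 and −0.85 at the others. *Acta2*, smooth muscle actin, had signals of 16566 in *Fbln5*-/- and 15045 in WT tissue, *Actg2* 7814 and 4862, *Myh11*, the smooth heavy chain, 2823 and 2246, and *Cnn1* 2228 and 3280. The summed smooth muscle signal was 59351 in *Fbln5*-/- and 53527 in WT tissue. Of 12 heart genes, 5 passed and none was 2-fold different, with a sum of 2039 in *Fbln5*-/- and 1995 in WT tissue. The defining heart genes *Myh6* (11.4 and 1.26), *Nppa* (19.3 and 15.9), *Nppb* (34.6 and 44.6) and *Tnni3* (29.0 and 6.03) were under 100 in *Fbln5*-/- and in WT tissue. Above 100 on both arrays were *Myl7* (872 and 802), *Tnnt2* (661 and 666) and *Myl4* (147 and 215). They encode an atrial light chain, cardiac troponin T and an atrial and fetal light chain. Another *Tnnt2* probe set had 725 in *Fbln5*-/- and 505 in WT tissue. No marker in these lists was at 0 at its brightest probe set.

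**Figure D4:**
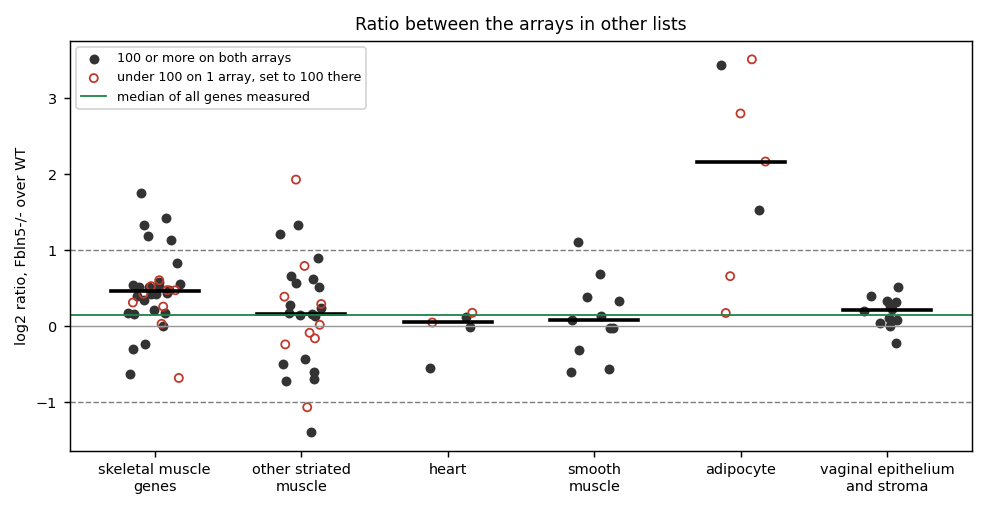
Ratio of *Fbln5*-/- to WT signal on the log2 scale for the skeletal muscle genes and for 5 other lists, 1 array per genotype, any signal below 100 raised to 100. Filled symbols passed the limit on both arrays, open symbols are bounds, thick bars are list medians, dashed lines mark 2-fold and the green line marks the median of all genes measured (0.15). With the bounds included, the median is 0.46 for skeletal muscle genes, 0.16 for other striated muscle and 0.05 for heart. It is 0.08 for smooth muscle, 2.17 for adipocyte and 0.21 for vaginal epithelium and stroma. Genes that passed only on the *Fbln5*-/- array could only be higher. Over filled symbols alone, in the same order, the medians are 0.48, 0.17, −0.01 (3 genes), 0.08, 2.48 (2 genes) and 0.21.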

How the data were processed

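RNA of 1 *Fbln5*-/- and 1 WT array was analysed. The authors deposited MAS5 signal intensities on a linear scale (of a version not stated in these sources), in which the mean over probe sets, with 2% trimmed at each end, was 500.0 on both arrays. As in the methods, both arrays were scaled to a common 50th percentile (factors 1.03 for *Fbln5*-/- and 0.972 for WT), and probe sets that reached 100 on 1 array or both were kept (21508, without 64 control probe sets). A single 0 was set to 0.1. Detection calls were not used. Probe sets were named by the platform annotation (34958 with 1 symbol, 932 with several, 9211 not listed), updated through 34754 matched identifiers, and none was named from several. Each gene took its values from its brightest probe set over both arrays. Where 1 array was under 100 the fold is a bound against 100, and where both were, none is given. No test was possible. The pooled SD between probe sets of 1 gene, over 4114 genes with several past the limit on both arrays, was 0.52 on the log2 scale, and the number of arrays limits the precision. The members, classes and lists were chosen with earlier results of these data known. Values are given for every member past the limit, for up to 6 genes with the largest and 3 with the smallest ratio in the further striated list, and for up to 4 defining markers elsewhere. *Pax7*, *Myf5*, *Synpo2*, *Mylk*, *Ucp1*, *Myl7*, *Tnnt2*, *Myl4*, *Trp63* and *Col3a1* fall outside this rule and were chosen after their values were seen. Other scalings, filters, pseudocounts and probe set choices were tried. Steps were tested on simulated arrays, with differences planted only in genes that had a probe set well above 100. Those arrays do not test calls near the limit. Python 3.11.15, numpy 2.4.6, pandas 2.3.3 and matplotlib 3.10.9 were used.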

Additional observations from a re-analysis of the deposited data

How the results depend on the processing

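No paired analysis was possible because each genotype has 1 array, so no replicate could be left out either. The median log2 ratio over the members measured stayed above that of all genes under each of the 12 alternatives of scaling, filter, pseudocount and probe set. The gap was 0.29 to 0.40 (0.34 over 36 members in the main setting), and no gene called 2-fold changed direction. Of these 36, 8 passed only on the *Fbln5*-/- array and could only be higher, and 1 passed only on the WT array. At 100 or more on both arrays, which leaves such genes out, the gap was 0.33 over 27 members. Setting the median ratio to 1 among probe sets past the limit on both arrays lowered the median of all genes from 0.16 to 0.05 and turned the split of all genes at least 2-fold higher and lower from 861 and 569 to 679 and 698. Under it 7 members were higher and none lower. The mean over probe sets gave 779 and 835 for all genes and 9 and 0 for members.

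The count of members at least 2-fold higher, 9 as reported, was 5 with a floor of 100, 5 with a limit of 200 on either array, 5 at 100 or more on both arrays, 14 without a filter (1 lower) and 3 at 3-fold. For the further striated list, 5 higher and 2 lower as reported, it was 3 higher with the ratio scaling, the floor of 100 or 200 or more on 1 array, 3 and 1 with 32 added, 2 and 1 at 100 or more on both arrays, 7 lower without a filter, 1 lower without _x_at, _s_at and _a_at probe sets, and 1 and 0 at 3-fold. The log2 ratio of *Fbln5*, −3.75, was −2.04 with the floor and −2.82 with 32 added. Leaving out *Tpm3* and *Des*, chosen after seeing the data, gave 9 higher, 0 lower and a median of 0.51 (0.50 with them). *Tpm3* was −0.70 as the mean of its probe sets and *Myl3* −0.10 without _x_at, _s_at and _a_at probe sets. The cause of these shifts was not tested. Stricter filters left fewer members (25 at 200 or more on 1 array, 27 at 100 or more on both), while the floor of 100 kept 36. Signals near 100 limit what can be read for slow and myogenic genes.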
